A study of Homo sapiens with 6 samples.

Results

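Definitive endoderm and mesoderm both arise from cells that leave the epiblast through the primitive streak, and SNAI1 is a zinc finger repressor that drives the loss of epithelial character as they do so. SOX17 and the forkhead factors FOXA1, FOXA2 and FOXA3 are transcription factors of early endoderm, and HNF4A acts later, in visceral endoderm, yolk sac and liver. APOA1, APOA2, TTR and AFP encode proteins that yolk sac endoderm and liver secrete into the circulation. These 9 genes were chosen by symbol as a set that reads early endoderm identity and its secreted products. All 9 were listed once in both deposited tables, out of 37803 symbols listed once in both.

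The libraries came from H1, a line of human embryonic stem cells, differentiated for 2 days toward blood in a custom mTeSR1 medium. Per the labels it held 40 ng/ml of activin A and 50 ng/ml of BMP4, and the study's methods swap these doses. All 6 libraries share this medium and time, and the groups were WT (no deletion, n = 2) and 2 groups with SNAI1 deletion, called SNAI1_KO_1 and SNAI1_KO_2 after the leading number in the titles (n = 2 each). The study made a pair of knockout lines by CRISPR/Cas9 with frameshift mutations, and the labels do not tie the leading number to a line. The labels do not say that the 2 samples of a group came from separate cultures, so the p-values measure only the spread between these samples, which may be technical.

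Expression was given as FPKM, fragment counts divided by transcript length and library size, in 2 tables that each hold 1 library of every group, and the depth of the libraries is unknown. A heading in the second table names FPKM, whereas the first names no unit and its values were taken as FPKM. The tables hold 38100 and 58324 gene rows and were taken to be processed separately, so knockout and WT were compared within a table. What sets the values of the 2 tables apart was not tested. FPKM of SNAI1 itself was 37.1, 51.6 and 68.6 for WT, SNAI1_KO_1 and SNAI1_KO_2 of the first table and, for the second, 36.4, 47.8 and 55.0. SNAI1 mRNA was higher in every library labelled as knockout than in WT of its table, and since a frameshift need not lower the transcript, this level does not check the labels. In bulk RNA, fewer cells of a type and less RNA per cell cannot be told apart.

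The promoters below were printed because they carry letters that SNAI1 or the FOXA proteins are known to bind. SNAI factors bind the E-box CACCTG and its reverse complement CAGGTG, and FOXA proteins bind forkhead sites, searched here as TGTTTAC and GTAAACA. Of 35116 RefSeq promoter windows of 250 bases before a transcription start, 17.5% hold the E-box on either strand and 2.98% hold the forkhead core. The RefSeq table (GRCh38.p14) gave 6 windows for 5 of the 9 genes, APOA2, AFP, FOXA1, FOXA3 and HNF4A, the last with 2 starts. SOX17, FOXA2, APOA1 and TTR are named only. Capitals mark the E-box and the forkhead core, the sequences run 5′ to 3′ on the strand of the gene, and each printed stretch was ended before the first annotated exon of its gene, so that of FOXA1 ends at base 100 before its start. The coordinates are those of RefSeq, since the expression tables carry none.
APOA2 promoter, chr1:161223632-161223878, minus strand: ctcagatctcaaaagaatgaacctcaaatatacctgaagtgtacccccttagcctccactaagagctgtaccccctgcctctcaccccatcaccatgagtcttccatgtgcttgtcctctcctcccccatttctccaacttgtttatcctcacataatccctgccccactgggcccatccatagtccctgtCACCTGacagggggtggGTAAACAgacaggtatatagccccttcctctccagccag
HNF4A promoter at the upstream start, chr20:44355449-44355698, plus strand: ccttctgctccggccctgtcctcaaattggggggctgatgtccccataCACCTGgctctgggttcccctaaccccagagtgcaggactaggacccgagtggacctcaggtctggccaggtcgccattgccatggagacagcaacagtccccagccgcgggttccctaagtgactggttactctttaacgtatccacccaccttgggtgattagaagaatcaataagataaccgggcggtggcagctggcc
FOXA1 promoter, chr14:37595349-37595499, minus strand: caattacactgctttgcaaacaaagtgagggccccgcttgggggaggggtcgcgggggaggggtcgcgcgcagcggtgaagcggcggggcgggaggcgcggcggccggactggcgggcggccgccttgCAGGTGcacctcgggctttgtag

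The APOA2 window held both motifs, with the E-box starting 59 bases before the transcription start, the forkhead core starting 42 bases before it and 11 bases between them. The E-box of HNF4A lay 202 bases before the upstream start, and that of FOXA1 lay 122 bases before its start. The windows of FOXA3, AFP and the other HNF4A start, searched over all 250 bases including annotated exons, held neither string. A match is a description of letters, not of binding, and no binding data were analysed here.

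Whether loss of SNAI1 moved endoderm genes at day 2 was asked by comparing knockout with WT. SOX17, FOXA1 and FOXA3 were higher and FOXA2 was lower in the mean of the knockout groups than in WT, while APOA1 and APOA2 did not pass the test. The set split in the same way in each table, with SOX17, FOXA1 and FOXA3 above WT and FOXA2 and HNF4A below WT in all 4 within-table differences. The differences of a table share its WT library. How many of all genes kept their direction in this way was not counted. Of the 9 genes, 6 averaged 1 FPKM or more and entered the limma fit on log2(FPKM + 1), and HNF4A, TTR and AFP did not. Of the 6 tested genes, 4 passed an adjusted p of 0.05 against both knockout groups together, 3 higher and 1 lower, where 31.3% of all 13909 genes tested passed. FOXA1, counted among the 3, averaged 0.661 FPKM in WT, so its place among the tested genes rests on the knockout libraries. SNAI1_KO_1 alone gave 2 calls of 6, SOX17 and FOXA3, both higher, beside 23.9% of all genes tested. SNAI1_KO_2 alone gave 2 calls of 6, FOXA3 higher and FOXA2 lower, beside 25.5% of all genes tested. These contrasts share the same 2 WT libraries.

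**Figure D1:**
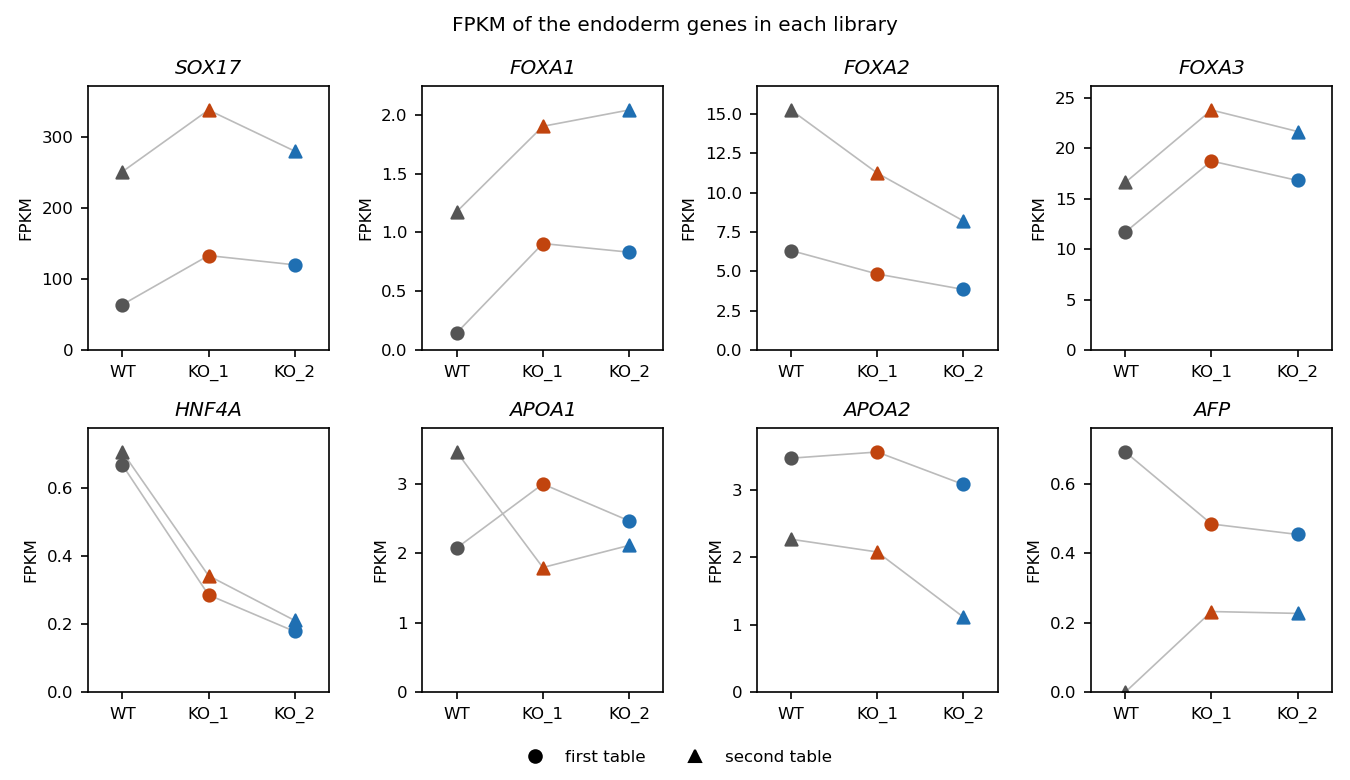
FPKM (y axis, linear, from 0) of 8 of the 9 genes in WT, SNAI1_KO_1 and SNAI1_KO_2 (x axis), with 1 point a library, circles for the first table, triangles for the second, and grey lines joining libraries of a table. SOX17, FOXA1 and FOXA3 step up and FOXA2 and HNF4A step down from WT in both tables, while the lines of APOA1 cross; TTR, at 0 in all 6 libraries, is not drawn.

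SOX17, an SRY-box factor needed to specify definitive endoderm, was the most abundant of the 9 genes in every library. Its FPKM in the first table was 63.9 in WT, 133 in SNAI1_KO_1 and 119.9 in SNAI1_KO_2. The second table listed 251 in WT, 338 in SNAI1_KO_1 and 279.9 in SNAI1_KO_2. The knockout libraries lay above WT of their own table in all 4 differences, by 2.08 and 1.88 times in the first table and, in the second, by 1.35 and 1.12 times. The groups overlapped when the tables were set together, because the second table exceeded the first by 3.93 times in WT, 2.54 times in SNAI1_KO_1 and 2.33 times in SNAI1_KO_2, a gap wider than any between genotypes. With the table as a block, SOX17 rose by 0.74 (SE 0.18) on the log2 scale in SNAI1_KO_1 with a limma adjusted p of 0.0378. In SNAI1_KO_2 the difference was 0.53 (SE 0.18, limma adjusted p = 0.0855), which did not pass. Against both groups together it rose by 0.63 (SE 0.15, limma adjusted p = 0.0319). By rank, SOX17 stood between place 237 and place 1439 from the top of the 37803 symbols.

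FOXA1, FOXA2 and FOXA3 are paralogous pioneer factors that open chromatin at endoderm and liver enhancers, and they moved in different directions. FOXA3, the member best known from liver and gut, was listed for the first table at 11.7 FPKM (WT), 18.8 (SNAI1_KO_1) and 16.8 (SNAI1_KO_2). Its values in the second were 16.6, 23.8 and 21.7, in the same order. All 4 knockout libraries lay above both WT libraries, so the groups did not overlap even across tables, though the lowest knockout value exceeded the higher WT value by little. The share of all genes tested with no such overlap was not counted. FOXA3 rose by 0.57 (SE 0.082) in SNAI1_KO_1 with a limma adjusted p of 0.00874. It rose by 0.43 (SE 0.082, limma adjusted p = 0.0184) in SNAI1_KO_2. Against both groups the difference was 0.50 (SE 0.071, limma adjusted p = 0.00632), the smallest adjusted p among the 6 tested genes.

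FOXA2, the forkhead factor of the anterior primitive streak, node and definitive endoderm, went the other way. The first table listed it at 6.33 FPKM for WT, 4.84 for SNAI1_KO_1 and 3.85 for SNAI1_KO_2. The second listed 15.3, 11.25 and 8.21. The order of WT above SNAI1_KO_1 above SNAI1_KO_2 held in both tables, although the groups overlapped across tables because the second table ran 2.13 to 2.41 times higher. FOXA2 fell by 0.71 on the log2 scale (SE 0.11, limma adjusted p = 0.00932) in SNAI1_KO_2. In SNAI1_KO_1 the difference was -0.37 (SE 0.11, limma adjusted p = 0.0633), which did not pass. Against both groups it fell by 0.54 (SE 0.093, limma adjusted p = 0.0114).

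FOXA1 was the scarcest of the 3 paralogs and lay near the limit for testing, with a mean of 1.17 FPKM over the 6 libraries. Its FPKM was 0.146 for WT, 0.905 for SNAI1_KO_1 and 0.832 for SNAI1_KO_2 of the first table. The second gave 1.18, 1.90 and 2.04. Both knockout libraries exceeded WT within each table, and the WT library of the second table exceeded both knockout libraries of the first. FOXA1 differed from WT by 0.57 (SE 0.18, limma adjusted p = 0.0738) in SNAI1_KO_1 and by 0.58 (SE 0.18, limma adjusted p = 0.0685) in SNAI1_KO_2, neither of which passed. The contrast of both groups gave a rise of 0.58 (SE 0.15, limma adjusted p = 0.0418). FOXA1 averaged 0.661 FPKM in WT and entered the fit only through its knockout libraries, so this call depends on the filter. HNF4A, at a similar mean of 0.686 FPKM in WT but lower in the knockout groups, was left out of the fit. At these levels the added 1 FPKM compresses the difference, and the plain ratio to WT was 6.20 and 5.70 in the first table against 1.62 and 1.73 in the second.

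The make-up of FOXA transcripts, a description with no test of its own, followed from these opposite moves. FOXA2 made up 34.8% of the summed FOXA FPKM of WT, 19.7% of SNAI1_KO_1 and 17.9% of SNAI1_KO_2 in the first table. The second table gave 46.2%, 30.4% and 25.7%. FOXA3 was the largest share in every library, from 50.3% in WT of the second table to 78.2% in SNAI1_KO_2 of the first. FPKM of FOXA3 exceeded that of FOXA2 by 1.85, 3.88 and 4.36 times for WT, SNAI1_KO_1 and SNAI1_KO_2 of the first table. In the second table the ratios were 1.09, 2.12 and 2.64. The ratio was thus higher in each knockout library than in either WT library. The summed FOXA level moved less, at 18.2, 24.5 and 21.5 FPKM in the first table against 33.1, 37.0 and 31.9 for the second, and it went below WT in SNAI1_KO_2 of the second table. The ratio of SOX17 to FOXA2, whose joint presence is commonly used to mark definitive endoderm, was 10.1 in WT, 27.5 in SNAI1_KO_1 and 31.1 in SNAI1_KO_2 in the first table. In the second it was 16.5, 30.0 and 34.1, again higher in every knockout library than in either WT library. Both ratios set a gene that was higher in knockout over FOXA2, which was lower, and so restate those differences. The share of gene pairs that separate like this was not counted.

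**Figure D2:**
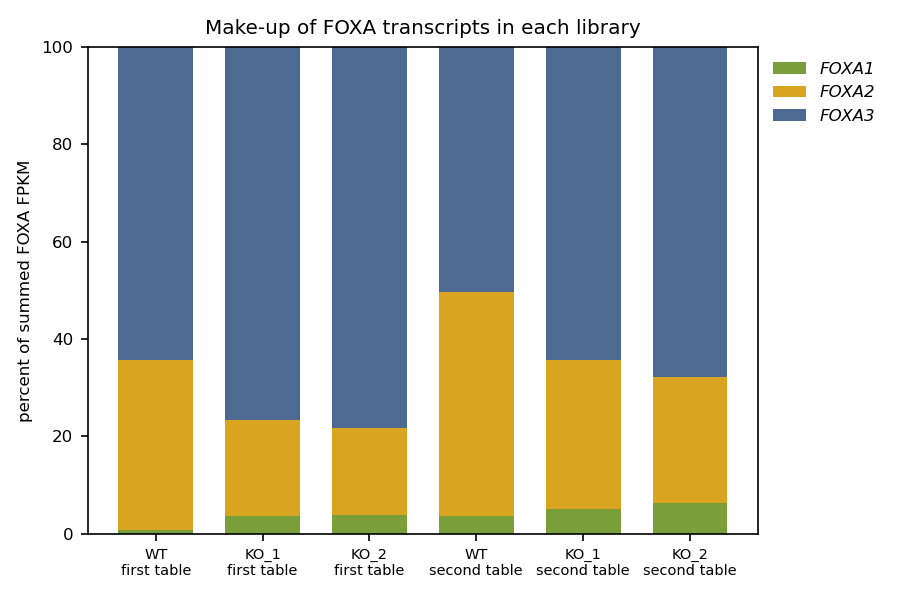
Share of FOXA1, FOXA2 and FOXA3 in their summed FPKM (y axis, percent, from 0 to 100) in each of the 6 libraries (x axis, by group and table). The FOXA2 share is 34.8% and 46.2% in the WT libraries and between 17.9% and 30.4% in the knockout libraries.

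HNF4A, a nuclear receptor that controls apolipoprotein and other liver genes, was low in all libraries and below the limit for testing. WT of the first table had 0.666 FPKM, SNAI1_KO_1 had 0.285 and SNAI1_KO_2 had 0.178. The second table held 0.705, 0.342 and 0.210. The WT libraries stood above all 4 knockout libraries with no overlap across tables, and HNF4A changed little between tables, by 1.06 to 1.20 times. How many of all genes showed no overlap was not counted. As plain ratios the knockout libraries held 0.428 and 0.267 of the WT level in the first table. The second gave 0.485 and 0.298. Fitted without the limit on low values, the difference was -0.43 against both groups (limma adjusted p = 0.0454), and each group alone did not pass (limma adjusted p = 0.0890 and 0.0563). How many fragments stand behind these low values is unknown.

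APOA1 and APOA2, the main proteins of high density lipoprotein, showed no difference past the threshold. APOA1 had 2.08, 3.0 and 2.47 FPKM for WT, SNAI1_KO_1 and SNAI1_KO_2 of the first table, against 3.46, 1.80 and 2.11 for the second. The knockout libraries lay above WT in the first table and below WT in the second, so the tables disagreed in direction. Against both groups the difference was -0.16 (SE 0.23, limma adjusted p = 0.635), with a 95% interval from -0.74 to 0.42. APOA2 was at 3.48, 3.57 and 3.09 FPKM for WT, SNAI1_KO_1 and SNAI1_KO_2 of the first table and, for the second, at 2.27, 2.08 and 1.12. SNAI1_KO_2 was the lowest library of each table and SNAI1_KO_1 lay close to WT. The difference against both groups was -0.20 (SE 0.15, limma adjusted p = 0.353), with a 95% interval from -0.59 to 0.18, and for SNAI1_KO_2 alone it was -0.38 (SE 0.17, limma adjusted p = 0.172). The intervals are not adjusted for the number of genes.

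TTR, which carries thyroid hormone and retinol-binding protein, was listed at 0 in all 6 libraries. AFP, the main serum protein made by fetal yolk sac and liver, was at 0.691, 0.484 and 0.454 FPKM for WT, SNAI1_KO_1 and SNAI1_KO_2 of the first table. In the second it was listed at 0 in WT and at 0.232 and 0.227 in the knockout libraries. The tables again gave opposite orders, and with a fitted difference of 0.05 and no test above the limit, no change of AFP was detectable at these levels.

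**Figure D3:**
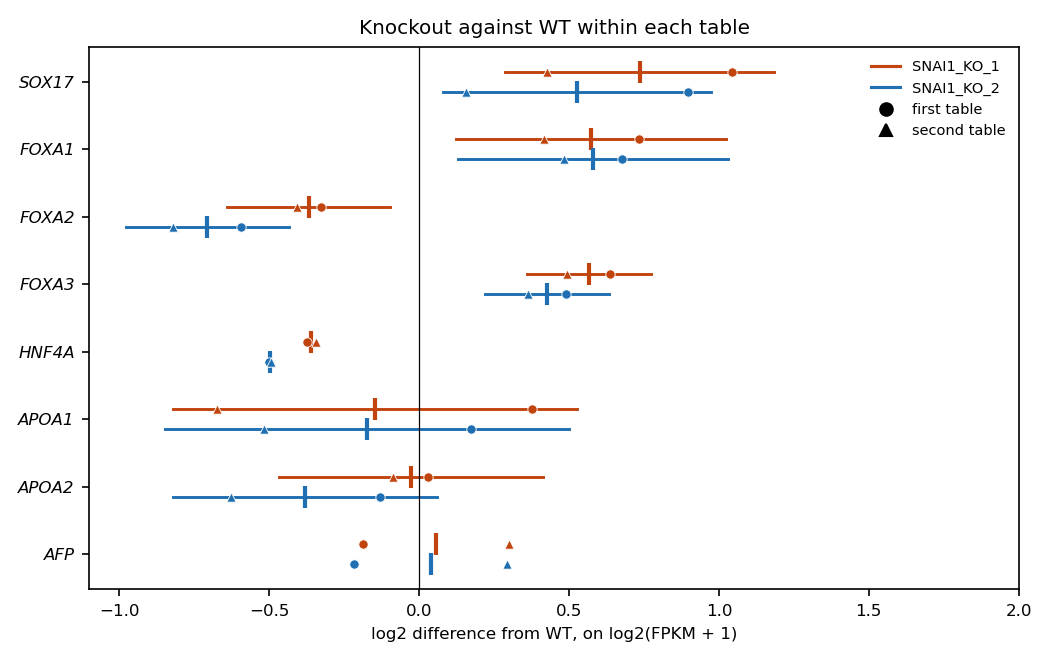
Difference of each knockout group from WT on log2(FPKM + 1) (x axis) for 8 genes (y axis), with circles and triangles for the first and second table, vertical ticks for the fitted difference, and lines for the unadjusted 95% interval of the limma fit; HNF4A and AFP were not tested and have no line. The points of both tables lie on the same side of 0 for SOX17, FOXA1, FOXA2, FOXA3 and HNF4A, and on opposite sides for APOA1 and AFP.

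The knockout groups did not differ from each other by the test, with 0 of 6 genes called and 0% of all genes tested, where 521 of 13909 genes had an unadjusted limma p under 0.05. Values of SNAI1_KO_2 were below those of SNAI1_KO_1 in both tables for SOX17, FOXA2, FOXA3, HNF4A, APOA2 and AFP. The share of all genes with this order was not counted, so it is not read as a trait of the set. The difference in FOXA2 was -0.34 (limma adjusted p = 0.9996), with an unadjusted 95% interval from -0.61 to -0.066. For APOA2 the difference was -0.35 with an interval from -0.79 to 0.088. The intervals ran from -0.66 to 0.24 for SOX17, from -0.35 to 0.068 for FOXA3, from -0.44 to 0.46 for FOXA1 and from -0.70 to 0.65 for APOA1, so differences of these sizes between the groups were not excluded.

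Calls were recomputed without single libraries, where the group left with 1 library is assumed to vary like the others. Leaving out each of the 6 libraries in turn kept every sign of the called genes, but FOXA3 was the only gene whose call against both groups was kept in 5 of 6 fits. Its call was lost when WT of the first table was left out (limma adjusted p = 0.0609). SOX17 and FOXA2 kept theirs in 2 of 6 fits each and FOXA1 in 0 of 6, with limma adjusted p between 0.0685 and 0.198 and a difference that stayed between 0.45 and 0.71. For SOX17 WT of the first table carried most of the difference, which was 0.29 without it (limma adjusted p = 0.0704) and 0.97 without WT of the second (limma adjusted p = 0.00940). SOX17 also lost its call without SNAI1_KO_1 of either table (limma adjusted p = 0.108 and 0.0703) or SNAI1_KO_2 of the first (limma adjusted p = 0.0919). FOXA2 lost its call without WT of either table (limma adjusted p = 0.0602 and 0.111) or SNAI1_KO_1 of either table (limma adjusted p = 0.0524 and 0.0507), while its difference stayed between -0.61 and -0.46 over the 6 fits. In the single contrasts, the SOX17 call in SNAI1_KO_1 was kept in 1 of 6 fits, that of FOXA3 in 3 of 6 in SNAI1_KO_1 and 2 of 6 in SNAI1_KO_2, and that of FOXA2 in SNAI1_KO_2 in 4 of 6. The fitted difference is the same without the term for the table, but none of the 6 genes was then called, with limma adjusted p between 0.268 for FOXA3 and 0.728 for SOX17 among the 4 genes called with it. With no limit on low values FOXA3 kept its call against both groups (limma adjusted p = 0.0353), and SOX17, FOXA1 and FOXA2 did not (limma adjusted p = 0.164, 0.104 and 0.0523). SOX17 also lost its call without the mean-variance trend (limma adjusted p = 0.0695), and FOXA1 lost it with either other pseudocount (limma adjusted p = 0.0576 and 0.0506) or quantile scaling (limma adjusted p = 0.0870).

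Other markers of endoderm were then read. The 6 definitive endoderm markers, SOX17, FOXA2, CXCR4, CER1, HHEX and GSC, were all at 1 FPKM or more in every library. Their summed FPKM was 3395 and 2909 in the WT libraries and between 1324 and 1975 in the knockout libraries, and CER1, a secreted antagonist of NODAL, BMP and WNT, made up 87.7% to 96.1% of it in WT and 73.8% to 91.0% in the knockout libraries. The sum fell below WT by 0.69 to 1.14 on the log2 scale over the 4 within-table differences, whereas without CER1 the same differences ran from -0.05 to 0.56, with SOX17 as the most abundant gene left. Without both CER1 and SOX17, a choice made after seeing the data, the sum of the other 4 markers lay below WT in all 4 differences. It was 68.8, 62.4 and 58.5 FPKM for WT, SNAI1_KO_1 and SNAI1_KO_2 of the first table and, for the second, 108.3, 91.7 and 66.7. GSC made up most of this sum, and HHEX, 1 of the 4, lay above WT in every difference. CER1 itself was at 3262, 1778 and 1797 FPKM for WT, SNAI1_KO_1 and SNAI1_KO_2 of the first table and, for the second, at 2550, 1374 and 977. It fell by 1.0025 against both groups (limma adjusted p = 0.00314). CXCR4, the chemokine receptor used to sort definitive endoderm, was at 7.49, 4.0 and 2.38 FPKM in the first table against 11.5, 2.69 and 3.04 for the second, and fell by 1.37 (limma adjusted p = 0.00840). HHEX, an early marker of anterior endoderm, stood at 3.82, 8.03 and 8.21 FPKM and at 7.53, 12.2 and 7.95, and did not pass (limma adjusted p = 0.0528). GSC, a homeobox gene of the organizer, stood at 51.1, 45.6 and 44.1 FPKM and at 74.0, 65.6 and 47.5, and did not pass either (limma adjusted p = 0.0839).

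The cells also carried markers of other types. All 11 listed markers of primitive streak and mesoderm were at 1 FPKM or more in every library, with sums of 1663 to 1728 FPKM in WT and 1116 to 1204 in the knockout libraries. Within that list TBXT (listed as T) was the only gene called higher against both groups, from 17.8 to 38.7 FPKM in WT and from 129.6 to 251 in the knockout libraries. APLNR, HAND1, FOXF1, MESP2, EOMES, KDR, PDGFRA and MESP1 were called lower, and MIXL1 and TBX6 were not called. Summed pluripotency markers were 631 and 740 FPKM in WT and 858 to 1167 in the knockout libraries, with POU5F1 at 76.9% to 86.9% of the sum. Of 6 defining liver markers none reached 1 FPKM in any library, their sum was at most 0.592, and SERPINA1 was at 0 throughout. Extraembryonic endoderm markers, which include HNF4A, APOA1, APOA2, TTR and AFP, summed to 271 and 408 FPKM in WT and to 193 to 256 in the knockout libraries, with GATA6 the largest. Summed endothelial markers were 11.3 to 20.8 FPKM, with RUNX1 or SOX18 highest in each library and PECAM1, CDH5 and TAL1 below 0.3. CD34 and ETV2 were lower in every knockout library than in either WT library, and SOX7, LMO2 and RUNX1 were higher. The share of all genes that separate in this way was not counted, so it is not read as a trait of these markers. SOX7 and RUNX1 did not pass the test, and CD34, ETV2 and LMO2 were below the limit for testing. Primordial germ cell markers, a type that also expresses SOX17, were 25.5 to 48.8 FPKM in WT and 30.3 to 50.0 in the knockout libraries with overlapping ranges. Markers of amnion and trophoblast summed to 262 and 282 FPKM in WT and 124 to 146 in the knockout libraries. HAND1, also in the mesoderm list, made up 76.7% to 85.6% of the sum in WT and 32.4% to 49.3% in the knockout libraries. Without HAND1 the sum was 40.6 and 61.0 FPKM in WT and 68.4 to 98.4 in the knockout libraries. Against both groups TFAP2A, CDX2, IGFBP3 and GABRP were called higher, HAND1 and GATA3 lower, and GATA2 was not called. IGFBP3 and GABRP were below 1 FPKM in both WT libraries, so their place among the tested genes rests on the knockout libraries. Neural ectoderm markers summed to 77.1 and 87.7 in WT and 97.5 to 124 in the knockout libraries, nearly all NES. The part that cell composition had in the changes of SOX17 and the FOXA genes was not tested.

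Other genes of the same programmes were read from 4 lists. Among 24 endoderm and foregut transcription factors, 15 were tested, 2 were higher, 5 were lower and 8 were not called against both groups (46.7% called, beside 31.3% of all genes tested), with a median log2 difference of -0.12 beside -0.050 for all genes tested. LHX1, a LIM homeobox factor of anterior mesendoderm, fell by 1.55 (SE 0.11, limma adjusted p = 0.000815), from 41.1 FPKM in WT to 15.9 and 15.5 in the first table and, for the second, from 66.7 to 19.98 and 17.9. GATA4, which acts with FOXA factors at endoderm enhancers, fell by 1.23 (SE 0.10, limma adjusted p = 0.00120), and GATA6 fell by 0.71 (SE 0.071, limma adjusted p = 0.00212). In SOX9, a factor of foregut and ductal progenitors, the difference was 1.09 (SE 0.14, limma adjusted p = 0.00450), with WT at 0.585 and 1.01 FPKM and knockout libraries between 2.56 and 3.38. SOX9, 1 of the 2 called higher, averaged below 1 FPKM in WT, so its place among the tested genes rests on the knockout libraries. GATA4 and GATA6 thus went with FOXA2 and not with SOX17 and FOXA3.

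All 18 early endoderm surface and secreted markers were tested, with 6 higher, 7 lower and 5 not called (72.2% called, beside 31.3% of all genes tested) and a median of -0.064. LEFTY2, a feedback inhibitor of NODAL, fell by 2.69 (SE 0.13, limma adjusted p = 0.000304), from 27.0 FPKM in WT to 4.38 and 3.30 in the first table and, for the second, from 33.8 to 3.69 and 4.07. NODAL, the ligand that induces endoderm, rose by 2.34 (SE 0.065, limma adjusted p = 0.000142), from 12.1 to 66.6 and 68.4 FPKM and from 13.3 to 64.1 and 73.7. FGF17, an FGF ligand of the primitive streak, rose by 2.13 (SE 0.18, limma adjusted p = 0.00132), and CD177, a surface protein reported on a subset of definitive endoderm cells, rose by 2.13 (SE 0.091, limma adjusted p = 0.000218). Each of these 4 differences, which were named for their size, was larger than those of SOX17 and the FOXA genes.

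Of 31 genes for apolipoproteins and lipoprotein assembly, 11 were tested, 4 were higher, 2 were lower and 5 were not called (54.5% called, beside 31.3% of all genes tested), with a median of 0.058, and 7 were listed at 0 in all libraries. CLU, the extracellular chaperone clusterin or apolipoprotein J, rose by 1.41 (SE 0.073, limma adjusted p = 0.000343), from 36.4 to 96.6 and 92.7 FPKM in the first table and, for the second, from 41.5 to 107 and 125. APOL2 and APOL3, intracellular members of the APOL family, rose by 1.36 (SE 0.16, limma adjusted p = 0.00327) and 1.18 (SE 0.28, limma adjusted p = 0.0288). PLTP, which moves phospholipid between lipoproteins, fell by 0.38 (SE 0.061, limma adjusted p = 0.00897). APOE, a ligand of the LDL receptor, was chosen for mention after its values were seen, since at 459 to 730 FPKM it exceeded APOA1 and APOA2 in every library on this length-scaled measure. It fell by 0.27 (limma adjusted p = 0.00409).

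The 22 secreted proteins of liver and yolk sac were mostly low, with 20 below the limit for testing. The 2 tested were TFPI, an inhibitor of coagulation made by many cell types, which rose by 0.94 (SE 0.20, limma adjusted p = 0.0218), and F10, coagulation factor X, which fell by 0.59 (SE 0.14, limma adjusted p = 0.0272). None of the 46 genes tested in the 4 lists was called between the knockout groups. The lists and the 9 genes were set with results of these data known, so their counts describe these lists alone.

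**Figure D4:**
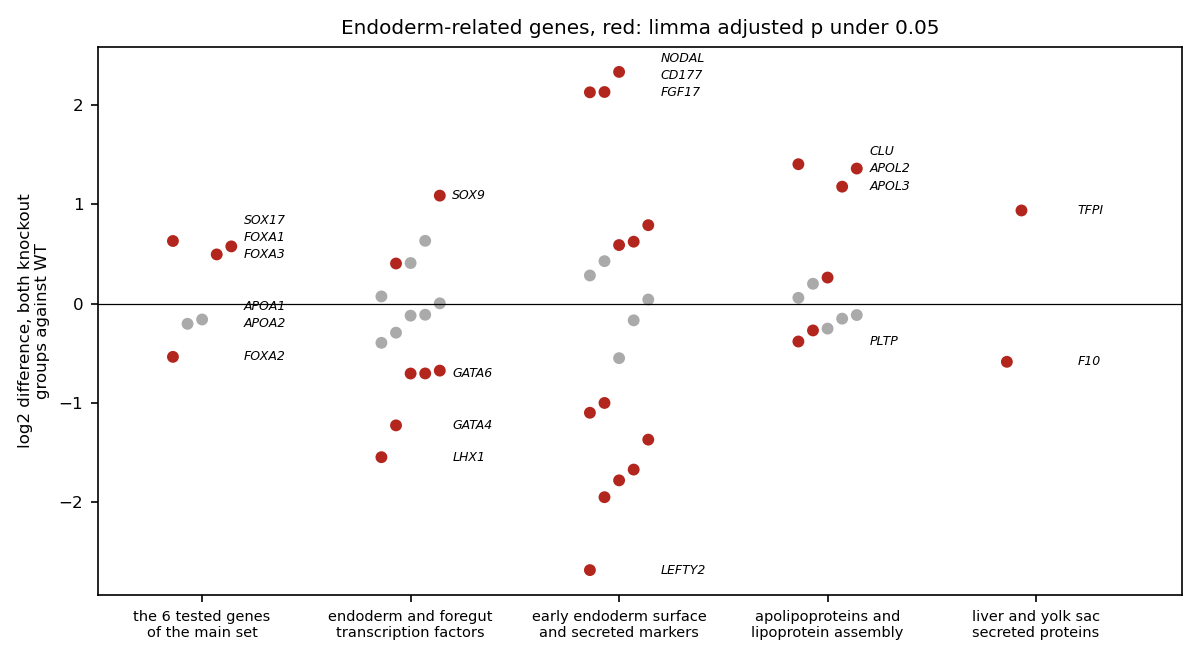
Difference of both knockout groups from WT on log2(FPKM + 1) (y axis) for the 6 tested genes of the set and for the tested genes of 4 lists (x axis), with 1 point a gene, red for a limma adjusted p under 0.05 and grey otherwise, and names for the set and for the genes named by rule. Red points lie on both sides of 0 in every column, from -2.69 for LEFTY2 to 2.34 for NODAL.

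The genes whose pattern lay nearest to each member were found by the Euclidean distance between log2(FPKM + 1) values centred on each table, over the 6 libraries. For SOX17 they were AC012615.3, MYO5B and STAU2, at distances of 0.160 to 0.206. FOXA1 had DSC2, KIT and IFNLR1 at 0.0514 to 0.0642, and FOXA3 had FUCA2, CFAP36 and DCBLD1 at 0.0690 to 0.0800. FOXA2 had NMRK1, HAUS7 and AC145285.7 at 0.0684 to 0.120. KIT, a receptor tyrosine kinase that is itself among the early endoderm markers, rose by 0.62 (limma adjusted p = 0.0102). For APOA1 the nearest were ADGRB1, ZNF493 and METTL12 at 0.0748 to 0.131, and for APOA2 they were RPS10-NUDT3, S1PR3 and RRNAD1 at 0.0280 to 0.123. Within the set, FOXA1 and FOXA3 were closest, at 0.193, and SOX17 and FOXA2 were farthest apart, at 1.39. FOXA2 lay closer to APOA2, at 0.413, than to either of its paralogs, at 1.21 and 1.34. These distances belong to the log2(FPKM + 1) scale, which compresses low genes such as FOXA1, APOA1 and APOA2. With a pseudocount of 0.1 the differences against both groups were 1.34 for FOXA1 and 0.52 for FOXA3.

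Genes that overlap the members in the annotation were low where listed. In GENCODE 29, TTC6 lies opposite FOXA1 and was at 0 to 0.332 FPKM, APOA1-AS lies opposite APOA1 and was at 0 to 0.281, and AL121722.1 shares a strand with FOXA2 and was at 0.00638 to 1.14. Whether counting used strand is not given in the sources used here, so fragments shared with these genes cannot be told apart from those of FOXA1, FOXA2 and APOA1.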

How the data were processed

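RNA-seq of 6 libraries was read from 2 tables that the authors deposited as FPKM values per gene symbol, 1 library of each group a table. The unit is named in the second table and was assumed for the first. The submitters' processing notes name BWA, Bowtie, RSEM and hg19 with no roles. Sequencing was done at 2 companies, and no source ties them to the tables. FPKM sums were 603399 to 633851 a library, and depth is unknown. Per-sample columns not used numbered 0.

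Symbols repeated in a table (94 and 340) were left out. The 13909 of 37803 symbols that averaged 1 FPKM or more were fitted on log2(FPKM + 1) with group and table as terms using limma 3.58.1 (R 4.3.3), with a mean-variance trend, 2 residual and 3.341 prior degrees of freedom, two-sided tests and Benjamini-Hochberg adjustment over all genes tested at 0.05. On this scale the change of low genes is understated. The pairing comes from the shared tables, where between-table differences of the 3 groups correlated across genes (not independent replicates) with r = 0.616, 0.666 and 0.677. The script was tested on simulated data.

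The 9 genes and all lists were chosen with earlier results of these data known. Named were all 9, up to 4 called genes a list with the largest difference, the 3 nearest genes of each tested member, and defining markers. Alternatives left out the block, used pseudocounts of 0.1 and 10, left out the filter or raised it to 5, and used median-ratio and quantile scaling, no trend, fewer groups, 1 library fewer, and marker sums without their highest gene. Symbols at 0 in all libraries stayed out of the fit with no filter.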

Additional observations from a re-analysis of the deposited data

How the results depend on the processing

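With 2 libraries a group, calls near the threshold moved with the setting. Without the replicate block, which pairs libraries by table, none of the 6 tested genes was called in any contrast against WT (0, 0 and 0), and calls over all genes dropped to 576 for SNAI1_KO_1, 698 for SNAI1_KO_2 and 1065 for both. With no filter, 1, 0 and 2 of the 9 genes were called, FOXA3 in SNAI1_KO_1 and FOXA3 and HNF4A for both, and 1008, 1216 and 2139 of 30248 genes. Fitting only the compared libraries left 1 called gene in SNAI1_KO_1. Leaving out a library in turn gave 0 to 2 called genes in SNAI1_KO_1, 0 to 2 in SNAI1_KO_2 and 0 to 3 for both, and 962 to 2379, 1135 to 2693 and 1728 to 2840 calls over all genes. Pseudocounts, scalings, the trend and the filter of 5 kept these counts within 1.5 times, with 3 genes tested under that filter. Between the knockout groups 0 genes were called by limma in every alternative, where 81 to 1313 had an unadjusted p under 0.05.

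Of 350 values of single genes under an alternative, 284 kept direction and side of the threshold, 49 lost the call, 3 gained it and 14 changed sign. The sign changes were in contrasts where the gene was not called. Leaving out 1 library, APOA1 ran from -0.58 to 0.29 in SNAI1_KO_1, from -0.61 to 0.26 in SNAI1_KO_2 and from -0.60 to 0.28 for both, positive without WT or, in the first and last, SNAI1_KO_1 of the second table. APOA2 in SNAI1_KO_1 ran from -0.18 to 0.12 and was 0.0064 under median-ratio scaling. Between the knockout groups, the leave-one-out values ran from -0.42 to 0.0068 for SOX17, from -0.11 to 0.12 for FOXA1 and from -0.38 to 0.33 for APOA1, and FOXA1 was at -0.0063 with a pseudocount of 0.1. The cause was not tested. Without their highest gene, the mean log2 ratio of marker sums turned from -0.85 to 0.30 for definitive endoderm (without CER1; -0.33 without CER1 and SOX17, a choice made after seeing the data), from -1.02 to 0.63 for amnion and trophoblast (without HAND1) and from 0.39 to -1.89 for neural ectoderm (without NES).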
